A study of Mus musculus with 40 samples.

Results

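Head impact was compared with sham handling in mice that received saline, the arm of the study without drug. The members were the libraries whose labels name saline, which gave 20 of the 40 libraries of the series, 10 saline HF-HI (high-frequency head impact) and 10 saline sham. Every library came from the cortex of male C57BL/6 mice of 12 weeks, taken 24 h after the last session. The labels number the libraries of a group without saying whether each is a separate animal, so p-values measure the spread between these libraries. The deposited design text gives 4 samples per group where the labels and the table give 10, and what n = 10 stands for was not settled by the sources used here. Saline was given 1 h before each daily session. Per the study's methods, saline HF-HI mice were anaesthetised with isoflurane and received several closed-head impacts a day on successive days, and saline sham mice had the same anaesthesia and handling without impact, so both groups share daily injection and anaesthesia. The tissue was a homogenate of whole cortex, in which neurons, glia and vessels are mixed. The other 20 libraries, memantine sham and memantine HF-HI, had the same sessions after memantine, which blocks glutamate receptors of the NMDA type, and entered the model to give a common estimate of the spread.

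When glutamate excites a neuron, calcium entry through NMDA receptors drives a fast wave of transcription. Immediate-early genes for transcription factors and synaptic effectors respond first, together with phosphatases that switch the MAP kinase signal off again. Injury to the brain is known to engage glia as well, with complement proteins made by astrocytes and microglia and with a rise of intermediate filaments in astrocytes. The endoplasmic reticulum answers a load of unfolded protein by raising its own chaperones, and sterol synthesis is controlled as a set by a shared family of transcription factors.

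The table held 6831 RefSeq transcripts of 5848 gene symbols, all of them abundant, with a mean normalised read count of at least 549.2 per transcript. A gene that is not in the table was therefore not measured here. A gene near this floor may be in the table only because a single group was high, which favours rises among such genes. Among the named risers, Junb (528), Klf10 (533) and C4b (550) had saline sham means under the lowest gene mean of 551.2. Summed counts per library ran from 13352944 to 17411169 in saline sham and from 14453999 to 17521982 in saline HF-HI. At the lowest gene mean, the coefficient of variation from counting is 4.26%. Markers of cortical excitatory neurons were present in every library, with the vesicular glutamate transporter Slc17a7 at 10338 ± 1195 normalised counts in saline sham and 10367 ± 966 in saline HF-HI (mean ± SD, n = 10 each). None of the 4 defining hippocampal markers and none of the 4 blood markers was in the table, whereas 6 of 9 defining striatal markers were, at levels given with the striatal genes.

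1 library stood apart from its group. Saline HF-HI replicate 1 lay far from the other 9 of its group in 155 of 5848 genes (2.65%), by a gap past Dixon's 95% critical value. The same count was 18 to 91 genes for the other saline HF-HI libraries and 25 to 74 for the saline sham libraries. Replicate 1 was kept in the main model. Where a named gene gains or loses its call without it, that value stands beside the result. Replicate 1 was the lowest of its group for Kcnip4, Egr1, Per2 and Sgk1, which were higher after impact. It was the highest for Gria1 and Hspa5, which were lower. For such genes, leaving it out enlarges the change by construction and adds no support.

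Across genes, head impact moved many transcripts by small amounts. Transcripts of a gene were summed, and log2 of the summed normalised count was compared with limma. The study's criterion, an unadjusted p-value below 0.05, is what a call means here, and 627 of 5848 genes (10.7%) met it. Of these, 301 (5.15% of the genes tested) rose and 326 (5.57%) fell. After Benjamini-Hochberg adjustment, 21 genes (0.359%) passed a threshold of 0.1, of which 15 rose and 6 fell, and 7 passed 0.05. Most changes were slight, since the median absolute log2 change of the called genes was 0.11 and 536 of them (85.5%) were under 0.2. In no gene were the 2 groups of 10 libraries wholly separate. All 10 saline HF-HI libraries were above the saline sham mean in 106 genes and all 10 were below it in 65. Without saline HF-HI replicate 1, 761 genes (13% of those tested) were called and 82 (1.4%) passed the adjusted threshold. The adjusted count was as unstable downward, with 3 genes without saline HF-HI replicate 5, 6 without any 1 of saline HF-HI replicates 7 and 9 and saline sham replicates 8 and 10, and 9 from the saline libraries alone. Gene lists are described below with the share called beside the 10.7% over all genes. The lists and their members were chosen with earlier results of these data known. A share above 10.7% therefore describes the list and is not a test of it.

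**Figure D1:**
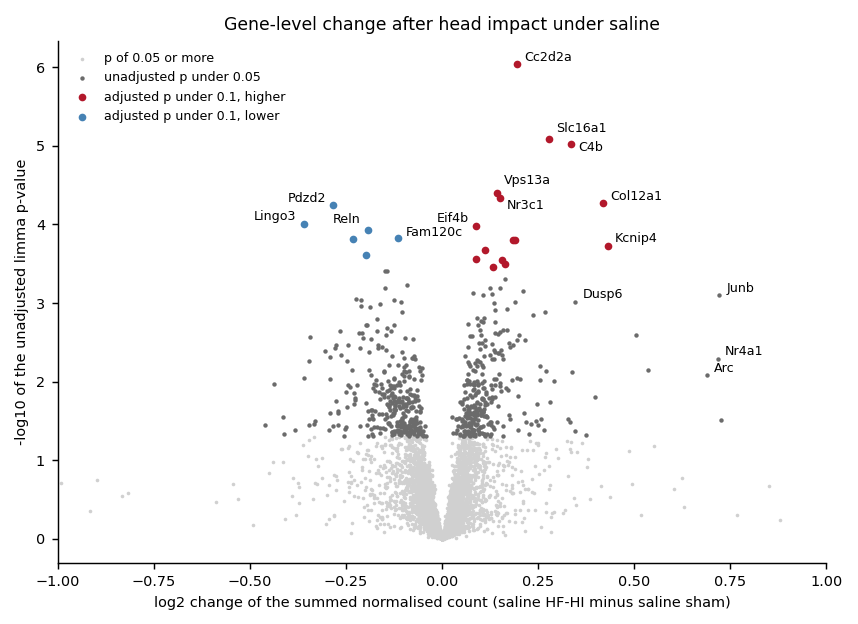
Each point is a gene, with the log2 change of its summed normalised count (saline HF-HI minus saline sham, n = 10 libraries each) on the horizontal axis and -log10 of the unadjusted limma p-value on the vertical axis. The 21 coloured genes pass an adjusted p-value of 0.1, while Junb, Nr4a1 and Arc have larger changes with wider spread, and 24 genes beyond 1 on the horizontal axis, 3 of them called, are not drawn.

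Immediate-early genes were among the largest rises. Of 22 activity-induced transcription factors listed, 15 were not in the table. Of the 7 that were, Junb, Nr4a1 and Klf10 rose and none fell (42.9% called, 10.7% over all genes). The median log2 change of the 7 was 0.27 beside -0.0001 over all genes. Junb, a partner in the AP-1 transcription factor, had a lowest, median and highest normalised count of 267, 486 and 828 in saline sham and of 345, 857 and 1259 in saline HF-HI. It rose by 0.72 ± 0.20 on the log2 scale (SE; p = 0.000799, adjusted p = 0.142), and 9 of 10 saline HF-HI libraries were above the sham mean. Nr4a1, an orphan nuclear receptor that calcium signals induce, ran from 439 through 655 to 1054 in saline sham and from 370 through 1232 to 1437 in saline HF-HI. The 9 saline HF-HI libraries other than replicate 1 were above all 10 saline sham libraries, and replicate 1 was below all of them. Its log2 change was 0.72 ± 0.24 (p = 0.00514, adjusted p = 0.242). Klf10, a zinc finger repressor, rose from 533 ± 33.2 to 647 ± 93.1 (log2 change 0.27 ± 0.08, p = 0.00131), with all 10 saline HF-HI libraries above the sham mean. Egr1, the most studied of these factors, was at 2141 ± 539 in saline sham and 2749 ± 577 in saline HF-HI and did not pass (p = 0.06), but was called without replicate 1 (log2 change 0.47, p = 0.0132). Egr3 was at 1313 ± 184 and 1127 ± 218 (p = 0.181).

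Among 14 activity-induced effectors, 4 rose (Arc, Ier5, Per1 and Plk2) and 2 fell (Vgf and Sorcs3), with a median of -0.02. That is 42.9% called, against 10.7% over all genes. Arc, a protein that removes AMPA receptors from synapses, had normalised counts of 1874, 2431 and 4537 (lowest, median, highest) in saline sham and of 1704, 4984 and 6289 in saline HF-HI. Saline sham libraries fell into a lower set of 6, up to 2623, and an upper set of 4, from 4362, while 9 saline HF-HI libraries stood above both and replicate 1 below them. Arc rose by 0.69 ± 0.25 on the log2 scale (p = 0.00833, adjusted p = 0.295, permutation p = 0.0113). Ier5 rose from 1123 ± 92.2 to 1261 ± 113 and Plk2, a kinase that weakens overactive synapses, from 4581 ± 199 to 4921 ± 371. Vgf, a neuropeptide precursor, fell from 1412 ± 149 to 1218 ± 177 (log2 change -0.22 ± 0.08, p = 0.0109). Sorcs3, a sorting receptor of the postsynapse, fell from 1452 ± 140 to 1334 ± 118. Homer1, at 7606 ± 1027 and 7393 ± 1029, and Nptx2, at 690 ± 100 and 611 ± 84.7, did not pass.

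Of 9 feedback inhibitors of MAP kinase in the table, Dusp6, Dusp14 and Spry2 rose and none was called lower (33.3% called, 10.7% over all genes). The other 6 did not pass, and the median log2 change was 0.05, with 5 genes higher and 4 lower. Dusp6, the phosphatase that switches off ERK, had counts of 989, 1077 and 1310 (lowest, median, highest) in saline sham and of 942, 1460 and 1702 in saline HF-HI. All saline HF-HI libraries but replicate 1 exceeded the highest saline sham library, and the log2 change was 0.35 ± 0.10 (p = 0.000965, adjusted p = 0.147). Dusp14 rose by 0.18 ± 0.08 and Spry2, an inhibitor of growth factor signals, by 0.11 ± 0.04. Without replicate 1, Junb (log2 change 0.86, adjusted p = 0.0152), Nr4a1 (0.90, adjusted p = 0.0412), Klf10 (0.29, adjusted p = 0.0746), Arc (0.85, adjusted p = 0.0787) and Dusp6 (0.41, adjusted p = 0.0192) all passed the adjusted threshold. Replicate 1 was the lowest saline HF-HI library for each of these genes, so leaving it out raises their changes by construction and adds no support. The saline sham library numbered 1, lowest of its group for Arc and Dusp6, was kept.

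**Figure D2:**
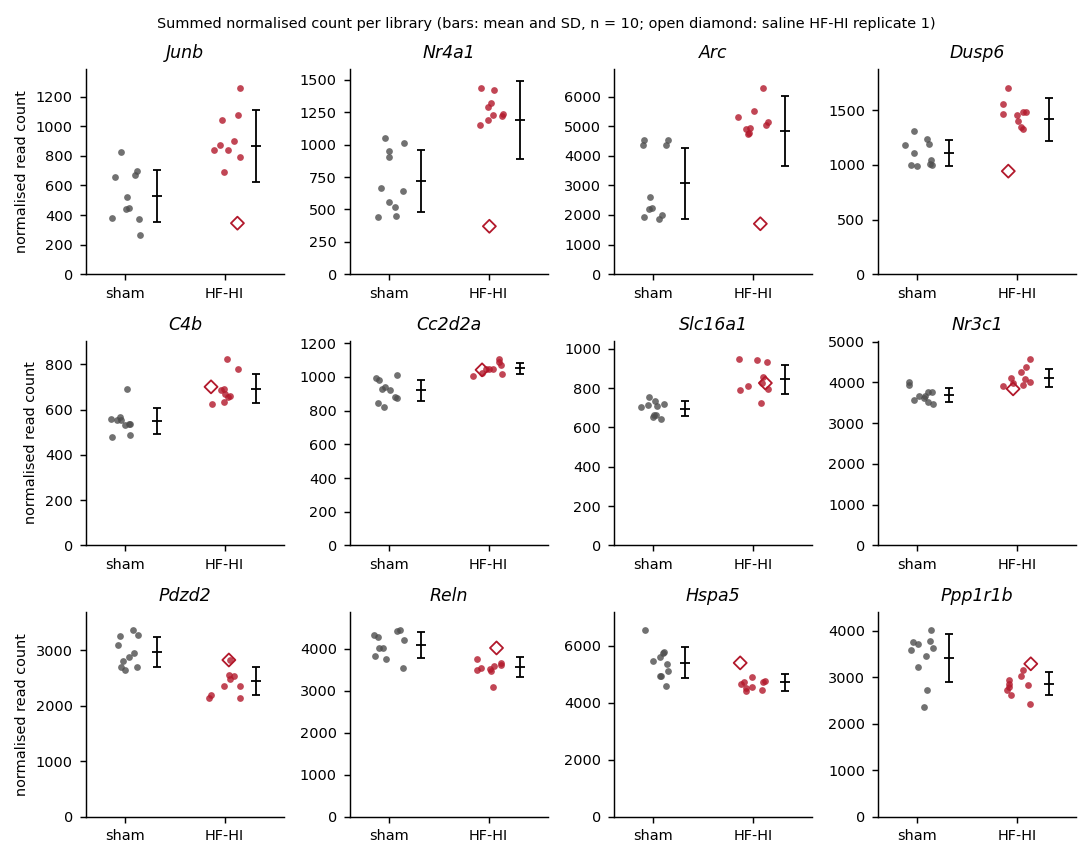
Summed normalised read count per library for 12 genes in saline sham (grey) and saline HF-HI (red), with the mean and SD at the side (n = 10 each) and saline HF-HI replicate 1 as an open diamond. Replicate 1 is the lowest saline HF-HI library for Junb, Nr4a1, Arc, Dusp6 and Nr3c1 and the highest for Hspa5, Pdzd2, Ppp1r1b and Reln, and the saline sham libraries fall into 2 sets for Arc.

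The level of these genes also went with the library number, but not in the same way in all groups. In saline sham, the libraries numbered 6, 7, 8 and 9 were the 4 highest for each of Arc, Nr4a1, Junb, Egr1 and Dusp6. Memantine sham was split by number as well, with Arc from 1611 to 3014 in the libraries numbered 1 to 5 and from 4262 to 6551 in those numbered 6 to 10. Neither HF-HI group was split so. Arc was 5039 to 6289 in saline HF-HI numbers 2 to 5 and 4728 to 5146 in numbers 6 to 10, beside 4362 to 4537 in saline sham numbers 6 to 9. In memantine HF-HI it was 3341 to 4594 in numbers 2 to 5 and 3537 to 4677 in numbers 6 to 10. The library numbered 1 was the lowest of its group for Arc in all 4 groups, at 1874 and 1704 in the saline groups (sham, then HF-HI) and at 1611 and 1540 in the memantine groups. The labels do not say what the numbers stand for, and what the same-numbered libraries share was not tested. With the library numbered 1 left out of all 4 groups, a choice made after the values were seen, the log2 change was 0.78 for Arc (p = 0.000375), 0.83 for Nr4a1 (p = 2.23e-05) and 0.81 for Junb (p = 1.92e-05).

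The circadian clock holds several genes that glucocorticoids and neuronal activity also induce, and its output genes rose. Of 21 clock genes in the table, 7 rose and 1 fell (38.1% called, 10.7% over all genes), with a median log2 change of 0.10. Bhlhe40, a repressor that activity induces, rose from 1795 ± 258 to 2142 ± 277 (log2 change 0.25 ± 0.09, p = 0.00945). Per1, a core repressor, had counts of 762, 1115 and 1635 (lowest, median, highest) in saline sham and of 765, 1443 and 1932 in saline HF-HI, and rose by 0.33 ± 0.15 (p = 0.0328). The PAR-domain output factors rose together, Hlf from 3699 ± 396 to 4170 ± 315, Dbp from 1006 ± 110 to 1134 ± 134 and Tef from 6498 ± 455 to 6950 ± 276. The repressor Nr1d2 rose by 0.10 ± 0.03 and Cry2 by 0.11 ± 0.05, and the activator Arntl, known as Bmal1, fell by 0.11 on the log2 scale (p = 0.0429). Per2 was at 1206 ± 251 and 1366 ± 192 and did not pass (p = 0.0897), but was called without replicate 1 (log2 change 0.26, p = 0.014). Without replicate 1, 8 clock genes rose and none of the 21 fell.

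Both corticosteroid receptors rose. Nr3c1, the glucocorticoid receptor, ran from 3464 through 3673 to 4000 in saline sham and from 3843 through 4046 to 4570 in saline HF-HI. All 10 saline HF-HI libraries were above the sham mean and 6 were above the highest sham library, a log2 change of 0.15 ± 0.03 (adjusted p = 0.0479). Nr3c2, the mineralocorticoid receptor, rose from 1022 ± 43.6 to 1083 ± 45.2 (p = 0.0109). Fkbp5, a co-chaperone that the receptor induces and that restrains it, fell from 1075 ± 192 to 880 ± 101 (log2 change -0.28 ± 0.11, p = 0.0174), with all 10 saline HF-HI libraries below the sham mean. Of 18 genes on the list of the receptor and its targets, 3 rose and 1 fell (22.2% called, 10.7% over all genes). The median was -0.01. Sgk1, a kinase that the receptor induces, was spread widely, from 347 to 3476 in saline sham and from 373 to 3172 in saline HF-HI, and did not pass (p = 0.2), but was called without replicate 1 (log2 change 0.78, p = 0.0287). Its sham values split by library number, at 347 to 1286 in numbers 1 to 5 and 2488 to 3476 in numbers 6 to 10.

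Complement and glial genes held some calls as well. Of 8 complement and antigen presentation genes in the table, 3 rose, C4b and B2m among them, and none fell. That is 37.5% called, against 10.7% over all genes, and the median log2 change was 0.07. C4b, complement component 4 (chromosome 17, 34728139 to 34743902 in GRCm38), had counts of 479, 546 and 692 (lowest, median, highest) in saline sham and of 627, 679 and 823 in saline HF-HI. The groups met only at saline sham replicate 7, the highest of its group, and the log2 change was 0.33 ± 0.07 (adjusted p = 0.0183). Its neighbour C4a is nearly identical in sequence, so how reads were divided between the pair is uncertain. B2m, the light chain of class I molecules, rose from 836 ± 57.7 to 919 ± 70.7 (p = 0.00393). C1qa, the first component, had a log2 change of 0.09 (p = 0.157), and none of the 20 interferon response genes listed was in the table.

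Of 9 microglial genes, 2 rose, among them the lysosomal protease Ctss (log2 change 0.15 ± 0.06), and none fell. That is 22.2% called, against 10.7% over all genes. The surface receptors that define microglia did not pass, with Cx3cr1 at 627 ± 89.1 and 608 ± 42.6 and Csf1r at 1534 ± 80.6 and 1573 ± 76. Of the 2 reactive astrocyte genes in the table, Gfap, the intermediate filament of astrocytes, rose from 1253 ± 230 to 1546 ± 347 (log2 change 0.29 ± 0.11, p = 0.00992). Its lowest, median and highest counts were 1034, 1182 and 1654 in saline sham and 1018, 1487 and 2270 in saline HF-HI, so the groups overlapped. In a homogenate, fewer cells of a type and less RNA per cell cannot be told apart.

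Astrocyte markers as a group did not move one way, since 2 of the 28 measured rose and 3 fell, with a median of -0.02. The falls included Htra1, a secreted protease (2256 ± 155 to 2033 ± 112, log2 change -0.15 ± 0.04), and Dio2, which activates thyroid hormone (2344 ± 262 to 2006 ± 218, -0.22 ± 0.06). Dio2 was below the sham mean in all 10 saline HF-HI libraries and Htra1 likewise. The rises were Sparcl1, a matrix protein that promotes synapses, and Glul, glutamine synthetase. The glutamate transporters Slc1a2 (89884 ± 4660 and 90791 ± 3168) and Slc1a3 (8644 ± 450 and 8401 ± 296) and the water channel Aqp4 (2202 ± 397 and 2210 ± 416) did not pass. Of 24 oligodendrocyte and myelin genes, 2 rose and 1 fell with a median of 0.00, and Mbp, a main protein of myelin, did not pass. Both called genes of the 6 oligodendrocyte precursor markers fell, Gpr17, a receptor of cells about to myelinate, from 829 ± 92.5 to 718 ± 75.2 and Ptprz1 from 5210 ± 415 to 4800 ± 211. Of 13 endothelial and mural markers, the blood-brain barrier transporters Slco1a4 and Abcb1a rose and none fell, with a median of -0.05. Slco1a4 was not called without replicate 1 (p = 0.0514). Called shares were 17.9% for astrocyte, 12.5% for oligodendrocyte and 15.4% for endothelial and mural genes, not far from the 10.7% over all genes. For the 6 precursor markers the share was 33.3%.

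Markers of GABAergic interneurons fell more often than they rose, with 6 of 16 called lower and 1 higher and a median log2 change of -0.04. That is 43.8% called, against 10.7% over all genes. Reln, the matrix protein reelin made by superficial interneurons, ran from 3527 through 4114 to 4429 in saline sham and from 3076 through 3560 to 4014 in saline HF-HI, the highest being replicate 1. All 10 saline HF-HI libraries were below the sham mean, and the log2 change was -0.19 ± 0.04 (adjusted p = 0.0667). Its most abundant transcript alone had a log2 change of 0.02 (p = 0.864), and the other transcript was lower with wide spread (p = 0.0456, adjusted p = 0.509). No transcript share passed the adjusted threshold, so the fall of the sum cannot be assigned to either transcript. The neuropeptide Sst fell from 891 ± 112 to 778 ± 62.5 (-0.19 ± 0.06, p = 0.0042), and Gad2, Slc32a1 and Dlx6os1 were among the others that fell. Pvalb, the calcium buffer of fast-spiking interneurons, rose from 806 ± 109 to 898 ± 113 (0.16 ± 0.07, p = 0.0362). With the striatal marker level as a covariate (described below), Slc32a1 (-0.05, p = 0.422), Dlx6os1 (-0.09, p = 0.13) and Pvalb (0.09, p = 0.211) were not called. Reln (-0.14, p = 0.00152) and Sst (-0.13, p = 0.0393) still were.

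Markers of the striatum, which lies beneath the cortex, were lower in saline HF-HI. All 17 in the table had a negative log2 change, 12 of them fell (70.6% called, 10.7% over all genes), and the median was -0.18. Ppp1r1b, known as DARPP-32, ran from 2351 through 3604 to 4003 in saline sham and from 2415 through 2845 to 3287 in saline HF-HI, a log2 change of -0.24 ± 0.09 (p = 0.011). Pde10a (-0.25 ± 0.08) and Adcy5 (-0.23 ± 0.08) fell too, and Drd1 did not pass (1585 ± 385 and 1453 ± 212). The mean log2 level of the 6 defining striatal markers was 11.90 ± 0.23 in saline sham and 11.69 ± 0.16 in saline HF-HI, while saline HF-HI replicate 1 was the highest of its group at 12.05.

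Some calls were lost with this level in the model and others were kept. The level itself differed between the groups, so the covariate can also take up part of a difference between them. With the mean of the 6 markers as a covariate, 369 genes (6.31%) were called, 305 of them among the 627 called without it, and 1 passed the adjusted threshold. The activity-induced transcription factors then had 3 rises and 1 fall, effectors 1 rise and 2 falls, clock genes 4 rises and no fall, and interneuron markers no rise and 3 falls. Voltage-gated channels went from 8 rises and 7 falls to 1 and 2, and GABA receptor genes from 2 and 3 to 1 and 1. The medians changed little for clock genes (0.10 to 0.09) and interneuron markers (-0.04 to -0.03), and went from 0.27 to 0.20 for the transcription factors. For interneuron markers, that small change of the median came with a drop from 7 calls to 3. Arc had a log2 change of 0.48 (p = 0.0592) and Dusp6 of 0.26 (p = 0.0092). Chaperones, complement genes and sterol synthesis had the same counts as without the covariate, and all 21 genes that passed the adjusted threshold were still called. Whether the striatal level has a part in these differences was not tested.

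**Figure D3:**
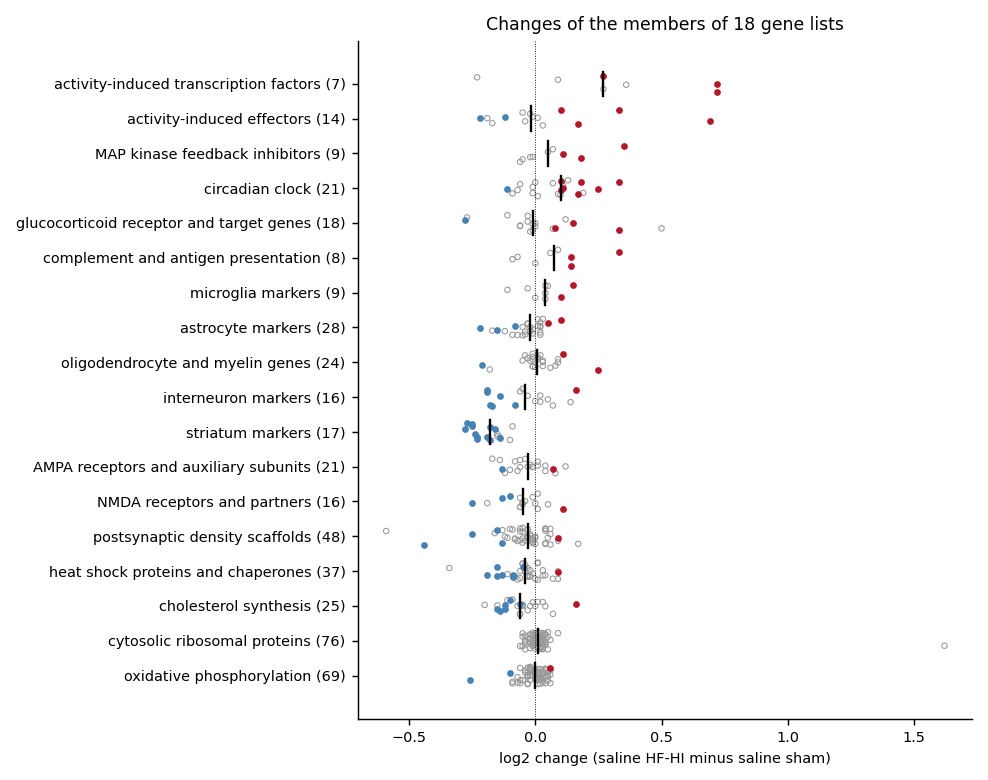
Log2 changes (saline HF-HI minus saline sham) of the members of 18 gene lists, with the number of members in the table in brackets. Filled red and blue points are genes called higher and lower, open points were not called and black bars are medians. The 17 striatal markers all lie below 0, and no cytosolic ribosomal protein of 76 is called.

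Glutamate receptors changed little. Of 21 AMPA receptor subunits and partners, 1 fell and 1 rose, with a median of -0.03, and the share called (9.52%) was near the 10.7% over all genes. Gria1, the GluA1 subunit, had counts of 7913, 8857 and 10148 (lowest, median, highest) in saline sham and of 7383, 8297 and 9816 in saline HF-HI, the highest again being replicate 1. It fell by 0.13 on the log2 scale (SE 0.04, p = 0.00478, adjusted p = 0.239), and was 0.07 lower with the striatal covariate (p = 0.0569). Without replicate 1 its log2 change was -0.16 (adjusted p = 0.0498), and its most abundant transcript alone was not called (p = 0.102). Frrs1l, which helps assemble AMPA receptors, rose by 0.07 ± 0.03, and Gria2, Gria3 and Gria4 had log2 changes of -0.04, -0.01 and 0.04 with no call. Of 16 NMDA receptor genes and partners, the kinase subunit Camk2g rose by 0.11 ± 0.04 and Dapk1, Ptpn5 and Src, all signalling partners of the receptor, fell by 0.10, 0.13 and 0.25. With the striatal covariate, Ptpn5 (-0.05, p = 0.168) and Src (-0.19, p = 0.124) were not called. Camk2g (0.08, p = 0.0282) and Dapk1 (-0.08, p = 0.0243) still were. With the most abundant transcript in place of the sum, Ptpn5 turned to 0.06 (p = 0.707) and Dapk1 was not called (p = 0.216). The subunits Grin1 (5794 ± 350 and 5834 ± 360), Grin2a (5276 ± 406 and 5299 ± 312) and Grin2b (10520 ± 736 and 10201 ± 207) did not pass. Of the NMDA list 25% was called, against 10.7% over all genes, and none of the 15 kainate and metabotropic receptor genes was called. Of 48 postsynaptic density scaffolds, 4 fell (Abi1, Baiap2, Dlgap2 and Lrrtm1) and 1 rose (Arhgap32), and of 64 presynaptic release genes 2 rose and 1 fell. The share called was thus 5 of 48 and 3 of 64 (4.69%), near and under the 10.7% over all genes, and Lrrtm1 was not called without replicate 1 (p = 0.104).

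GABA receptor subunits and voltage-gated channels moved in both directions. Among 20 GABA receptor genes, 2 rose and 3 fell (25% called, 10.7% over all genes), and with the striatal covariate 1 rose and 1 fell. The beta subunit Gabrb2 rose by 0.06 ± 0.03 on the log2 scale. Gabra2 fell from 1540 ± 134 to 1393 ± 85.7 (-0.14 ± 0.04, p = 0.00211), and the clustering proteins Gphn and Lhfpl4 fell by 0.06 and 0.08. With the covariate, Gabrb2 (p = 0.126), Gphn (p = 0.119) and Lhfpl4 (p = 0.149) were not called, and Gabra2 still was (p = 0.0141). Of 56 voltage-gated channel genes, 8 rose and 7 fell (26.8% called), and with the striatal covariate 1 rose and 2 fell. Kcnip4, which modulates A-type potassium channels, had counts of 388, 584 and 708 (lowest, median, highest) in saline sham and of 455, 800 and 965 in saline HF-HI, where 8 libraries exceeded the highest sham library and replicate 1 was the lowest. Its log2 change was 0.43 ± 0.10 (adjusted p = 0.0723), and 0.51 without replicate 1 (adjusted p = 0.00629), which by construction adds no support. The potassium channels Kcnh7 and Kcnj9 and the auxiliary subunits Cacnb4 and Dpp10 rose, and Scn3a, a sodium channel of immature neurons, fell by 0.09 on the log2 scale. With the covariate, Kcnh7 (p = 0.072), Kcnj9 (p = 0.122), Cacnb4 (p = 0.0513), Dpp10 (p = 0.145) and Scn3a (p = 0.156) were not called. Kcnip4 still was (0.37, p = 0.00147).

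Several chaperones fell. Of 37 heat shock proteins and chaperones, 8 fell and 1 rose (24.3% called, 10.7% over all genes), with a median log2 change of -0.04. Of the 8 that fell, 6 (Hspa5, Pdia4, Pdia6, Hyou1, Manf and Calr) are proteins of the endoplasmic reticulum, a grouping made after their values were seen. Hspa5, the master chaperone BiP, ran from 4580 through 5409 to 6536 in saline sham and from 4397 through 4698 to 5399 in saline HF-HI, the highest being replicate 1. The other 9 saline HF-HI libraries were below the sham mean, and the log2 change was -0.19 ± 0.06 (p = 0.0019, adjusted p = 0.189, and 0.0769 without replicate 1). The disulfide isomerases Pdia4 (1109 ± 99.3 to 1000 ± 53.6) and Pdia6 (1697 ± 137 to 1533 ± 111) each fell by 0.15. Manf, a secreted stress protein, fell by 0.13, and Hyou1 and Calr, which fold new glycoproteins or support that work, fell by 0.09 each. The cytosolic chaperones Hspa4 and Hsph1 made up the 8, and the list's riser was Dnajc6, auxilin, which uncoats synaptic vesicles (8473 ± 330 to 9039 ± 293, 0.09 ± 0.03). Hsp90b1 (log2 change -0.08, p = 0.123) and Dnajc3 (-0.06, p = 0.164), also of the endoplasmic reticulum, did not pass.

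The promoters of 3 falling chaperones carry the letters of the endoplasmic reticulum stress element, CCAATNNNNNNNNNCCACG, a known binding motif of the unfolded protein response. They are shown because these members moved together. Each run is the RefSeq promoter in build GRCm38.p6, 300 bases on the strand of the gene, 5′ to 3′, from 250 before to 50 after its start, with the motif on either strand in capitals.
Hspa5 (chr2:34771840-34772139, plus strand): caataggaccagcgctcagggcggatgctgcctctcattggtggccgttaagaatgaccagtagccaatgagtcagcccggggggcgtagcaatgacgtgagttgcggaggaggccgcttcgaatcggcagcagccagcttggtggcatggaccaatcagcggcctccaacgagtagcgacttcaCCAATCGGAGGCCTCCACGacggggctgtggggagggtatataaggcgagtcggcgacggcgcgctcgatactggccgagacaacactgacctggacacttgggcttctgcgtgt
Pdia6 (chr12:17266339-17266638, plus strand): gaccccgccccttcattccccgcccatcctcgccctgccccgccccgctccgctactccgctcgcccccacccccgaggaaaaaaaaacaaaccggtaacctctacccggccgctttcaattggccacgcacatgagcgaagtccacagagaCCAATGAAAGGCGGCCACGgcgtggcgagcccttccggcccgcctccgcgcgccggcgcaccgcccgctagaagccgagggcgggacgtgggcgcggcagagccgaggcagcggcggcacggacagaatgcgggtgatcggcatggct
Calr (chr8:84846882-84847181, minus strand): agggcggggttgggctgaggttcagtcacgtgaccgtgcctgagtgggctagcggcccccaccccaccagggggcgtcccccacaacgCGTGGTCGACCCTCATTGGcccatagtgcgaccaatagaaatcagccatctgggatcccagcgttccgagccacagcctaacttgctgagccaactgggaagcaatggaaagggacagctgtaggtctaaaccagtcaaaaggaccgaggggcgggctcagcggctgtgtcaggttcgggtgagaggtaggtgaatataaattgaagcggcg
The motif begins 65 bases before the start in Hspa5, 98 before it in Pdia6 and, on the opposite strand, 162 before it in Calr. It was found in 6 of the 28 listed chaperones that had a promoter sequence (21.4%), against 37 of 27025 genes with one (0.137%). The other 3 were Hsp90b1, Dnajc3 and Canx, none of them called, so the motif was present in members that fell and in members that did not. Of the 7 called chaperones with a promoter sequence, 3 carried it (42.9%). The share over the list depends on which genes were listed and not on their change after impact. The cyclic AMP response element TGACGTCA was found in 4 of 22 activity-induced genes and MAP kinase inhibitors with a promoter (18.2%), against 4% of the genes of the table and 2.03% of all genes, and Plk2 was the carrier among those called. These are matches of letters, not bound sites.

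Sterol and fatty acid synthesis also ran lower. Of 25 genes, 6 fell and 1 rose (28% called, 10.7% over all genes), 20 had a negative log2 change, and the median was -0.06. Msmo1, a C-4 sterol oxidase, fell from 1225 ± 55.1 to 1108 ± 109 (-0.15 ± 0.06, p = 0.0143), Hmgcs1, which makes the precursor of mevalonate, from 5139 ± 289 to 4750 ± 434 and Fdps, which makes farnesyl diphosphate, from 594 ± 48.5 to 541 ± 56.9. Scd1, Acat2 and Acly fell by 0.12, 0.10 and 0.06, and Scd1 was not called without replicate 1 (p = 0.0841). Abca1, the pump that exports cholesterol, rose from 2034 ± 200 to 2269 ± 173 (0.16 ± 0.05, p = 0.00511).

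Among fuel and amino acid genes, calls went both ways. Slc16a1, the lactate transporter MCT1 (chromosome 3, 104638664 to 104658462 in GRCm38), had counts of 642, 707 and 755 (lowest, median, highest) in saline sham and of 724, 825 and 947 in saline HF-HI. It exceeded the highest saline sham library in 9 of 10 saline HF-HI libraries, a log2 change of 0.28 ± 0.05 (adjusted p = 0.0183). Ldha, which interconverts lactate and pyruvate, fell from 3017 ± 217 to 2751 ± 171 (-0.13 ± 0.04, p = 0.00226), all 10 libraries being below the sham mean. Slc38a2, a neutral amino acid transporter that starvation induces, rose from 3191 ± 171 to 3642 ± 368 (0.19 ± 0.04, adjusted p = 0.0667). Slc7a11, the cystine-glutamate exchanger, rose from 1684 ± 81.7 to 1889 ± 109 (0.16 ± 0.04, p = 0.000495, adjusted p = 0.121), with 10 of 10 libraries above the sham mean. Atf4, a transcription factor of amino acid stress that can induce both, was 1307 ± 60.8 and 1374 ± 79.6 and passed (p = 0.0468). The lists as a whole were mixed, with 2 rises and 1 fall among 31 glucose and lactate genes and 3 of each among 20 amino acid genes. The amino acid falls were the transporters Slc7a14 (log2 change -0.07, p = 0.0296) and Slc1a1 (-0.05, p = 0.0475, and 0.109 without replicate 1) and the stress protein Sesn3 (-0.08, p = 0.0318). The share called of glucose and lactate genes, 9.68%, was near the 10.7% over all genes, and 30% of the amino acid genes were called.

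The smallest p-value belonged to Cc2d2a, a protein of the transition zone at the base of the primary cilium (chromosome 5, 43662374 to 43740975). Its counts ran from 820 through 926 to 1010 in saline sham and from 1007 through 1048 to 1104 in saline HF-HI. The groups overlapped at 1 library of each, and the log2 change was 0.19 ± 0.03 (adjusted p = 0.0054, permutation p = 2e-05). Of 18 cilium genes it was the riser, while Ahi1, a partner at the same site, and Kif3b, a motor of the cilium, fell by 0.15 and 0.05. Of that list 16.7% was called, against 10.7% over all genes, and the list was chosen with earlier results known. Col12a1, a fibril-associated collagen, rose from 584 ± 78.5 to 785 ± 130 (0.42 ± 0.09, adjusted p = 0.0479), and the collagens Col4a1 and Col4a2 of the vascular basement membrane fell by 0.16 and 0.18. Vps13a, a lipid transfer protein, rose by 0.14 ± 0.03 (adjusted p = 0.0479), and it was the called member among 16 bridge-like lipid transfer genes (6.25%). Eif4b, a helicase cofactor in translation, rose by 0.09 ± 0.02 (adjusted p = 0.0667), although none of 76 cytosolic ribosomal protein genes was called.

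Among the falls with the smallest p-values, Pdzd2, a scaffold with several PDZ domains, ran from 2637 through 2915 to 3353 in saline sham and from 2131 through 2418 to 2822 in saline HF-HI. It was below the sham mean in 10 of 10 libraries, 8 of them under the lowest sham library (log2 change -0.28 ± 0.06, adjusted p = 0.0479). Lingo3, a leucine-rich repeat protein of neurons, fell from 662 ± 67 to 518 ± 76.5 (-0.36 ± 0.08, adjusted p = 0.0667). Its relative Lingo1, a co-receptor that limits axon growth and myelination, fell from 2312 ± 316 to 1997 ± 414 (-0.23 ± 0.09, p = 0.0192; p = 0.061 without replicate 1). Fam120c (-0.11 ± 0.03) and the uncharacterised D430019H16Rik (-0.23 ± 0.06) and 6330403K07Rik (-0.20 ± 0.05) also passed the adjusted threshold, and among the rises so did Gtdc1 (942 ± 57.9 to 1075 ± 85). Orai2, a calcium channel subunit, and Nus1, needed for dolichol synthesis, fell by 0.15 and 0.09.

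Ranking by size rather than p-value put unstable estimates first. The largest rise, Eif4e, was 1677 ± 894 in saline sham because 2 libraries were listed at 0, and 2175 ± 171 in saline HF-HI, and the medians were 1996 and 2177. The largest falls, Cep250 and Kcns2, had saline HF-HI libraries at 0 and medians of 596 and 790 against 633 and 879. Zfx, with a log2 change of 0.73, spread from 139 to 1177 within saline sham alone. Of the 40 called genes with the largest changes, 28 had 1 transcript in the table but other curated RefSeq transcripts that are not in it, although such genes were 38.7% of all genes. Among sham libraries these genes had a median coefficient of variation of 8.38%, against 5.91% for genes with 1 curated transcript and 6.31% for genes summed over several.

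Single transcripts were therefore compared with the sum of their gene. On the deposited scale, 651 of 6831 transcripts (9.53%) were called and 14 (0.205%) passed the adjusted threshold. Of the called ones, 106 belonged to genes with another transcript in the table, and the gene's sum was also called for 31 of these (29.2%). Of the 72 called genes with several transcripts, 43 had no called transcript. Arc was a case where both moved, since its transcript NM_018790 rose from 1978 ± 877 to 3227 ± 853 and its sum from 3067 ± 1206 to 4832 ± 1190.

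In other genes single transcripts were called and the sum was not, and none of the transcripts named next passed the adjusted threshold. In Rps6ka3, a kinase downstream of ERK, NM_148945 went from 1345 ± 869 to 601 ± 732 and NM_001346675 from 1020 ± 814 to 1672 ± 672, while the sum was 2365 ± 206 and 2273 ± 95.8 (p = 0.156). In Sirpa, NM_001177647 fell from 1283 ± 703 to 510 ± 435 with a sum of 6677 ± 399 and 6648 ± 188. In Cdc42bpa, NM_001346804 rose from 3096 ± 664 to 5680 ± 2889 with a sum of 11336 ± 377 and 11514 ± 329. The SD of each of these transcripts was larger than that of its sum in both groups. In Reln, NM_001310464, the less abundant of a pair, fell from 1259 ± 669 to 690 ± 576 with wide spread, the more abundant one had a log2 change of 0.02, and the sum carried the adjusted call.

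The ratio of each transcript to the gene's other transcripts was used to test for an exchange between them. Of 1673 transcripts in genes with several, 79 (4.72%) were called by limma at an unadjusted p-value under 0.05, and 0 (0%) passed the adjusted threshold, with a smallest adjusted p-value of 0.758. The p-values were lowest for Prdx2, a peroxiredoxin, where NM_001317385 made up 58.5% ± 7.16 of the gene's counts in saline sham and 69.2% ± 5.89 in saline HF-HI (p = 0.00304), and the gene's sum was 2378 ± 147 and 2367 ± 131. In Pak3, a synaptic kinase, NM_001195046 went from 25.3% ± 8.63 to 12.2% ± 10.3 (p = 0.00445). The sum of Pak3 was not called (p = 0.0642), but was without replicate 1, its highest saline HF-HI library (log2 change -0.15, p = 0.0366). In Pik3r1, NM_001024955 went from 32.8% ± 6.66 to 23.5% ± 5.25, and in Cdc27, NM_001285989 went from 30.0% ± 10.6 to 44.1% ± 8.02. Agap3 and Wnk1 were the other genes whose shares had the lowest p-values with no call for the sum.

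**Figure D4:**
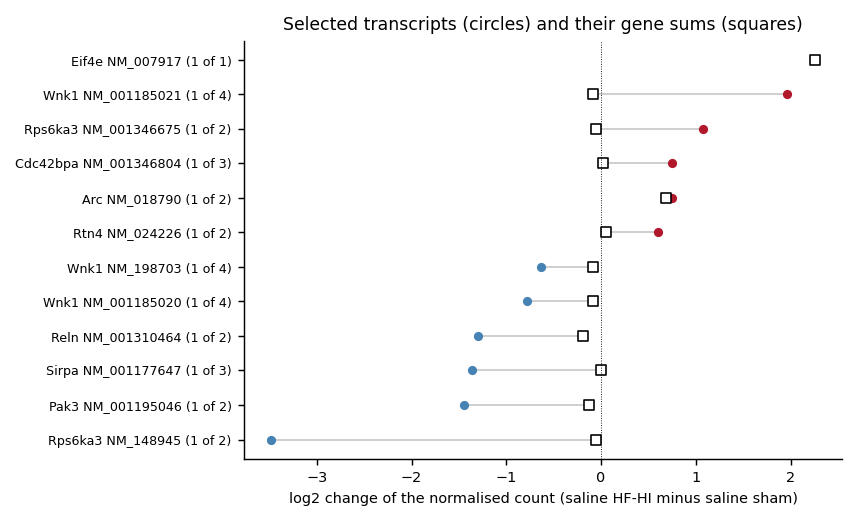
Log2 change of the normalised count (saline HF-HI minus saline sham, n = 10 each) for the called transcripts with the 6 largest rises and 6 largest falls on the deposited variance-stabilised scale (circles) and for the sum of the same gene (squares), with the number of the gene's transcripts in the table in brackets. Among these 12, the gene's sum is near the transcript for Arc and Eif4e only, and for Eif4e the transcript is the sum.

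The same impact was given to the memantine arm, which shares no library with the saline arm. There, 256 genes (4.38%) were called and 1 (0.0171%), C4b, passed the adjusted threshold, rising from 478 ± 39.8 to 667 ± 92.4 (log2 change 0.47 ± 0.07, adjusted p = 7.11e-05). C4b differed between the arms by 0.14 on the log2 scale (p = 0.145), and Gfap had a log2 change of 0.45 under memantine (p = 0.000183) beside 0.29 under saline (difference 0.15, p = 0.319). Of the 24 genes with the smallest p-values under saline which were chosen on the saline values, 22 had the same sign under memantine and 8 were called. The difference between the arms (memantine minus saline) was called in 12 of the 24, among them Slc16a1 (-0.21, p = 0.00959), Kcnip4 (-0.39, p = 0.0114), Nr3c1 (-0.12, p = 0.0111) and Reln (0.15, p = 0.0207). The saline change is part of that difference, so choosing genes on it raises this count. The count of 12 therefore cannot show that the changes were smaller under memantine. Arc, Nr4a1 and Junb had log2 changes of 0.11, 0.06 and 0.20 under memantine, none of them called, and differences between the arms of -0.58 (p = 0.106), -0.66 (p = 0.0609) and -0.52 (p = 0.0701). Over all genes, 210 (3.59%) had an unadjusted limma p-value under 0.05 for the difference between the arms, and 0 (0%) passed the adjusted threshold, the smallest adjusted p-value being 0.999.

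**Figure D5:**
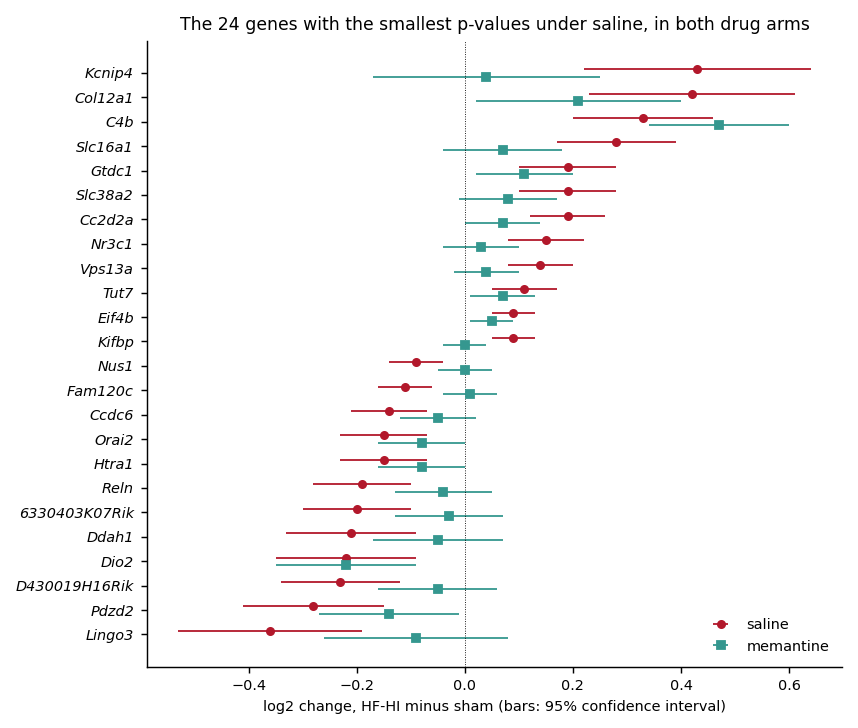
Log2 change (HF-HI minus sham) with its 95% confidence interval from limma for the 24 genes with the smallest p-values under saline (red circles) and for the same genes under memantine (green squares), n = 10 libraries per group. C4b (0.33 and 0.47) and Dio2 (-0.22 in both) are not nearer 0 under memantine, and the other genes are. Choosing the genes by their saline p-values tends by itself to leave the memantine changes nearer 0.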

How the data were processed

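RNA from the cortex of 40 mouse samples, 10 per group, was depleted of ribosomal RNA and sequenced as stranded paired reads. Per the study's methods, the authors aligned reads to mm10 with STAR, estimated counts per RefSeq transcript with eXpress, and applied DESeq2 size factors and variance stabilisation. The submitters' processing notes name HISAT2 and StringTie instead. The deposited values are on a log2-like variance-stabilised scale with a floor of 10.36 for a count of 0, reached by 371 values. They were inverted to normalised counts, and all values under 5000 (92.4% of them) gave whole reads within 0.1. Size factors ran from 0.859 to 1.141. Of 6831 transcripts, 6804 (99.6%) had a symbol, the 27 others kept out of the 5848 sums. The lowest gene mean was 551.2.

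Gene sums (log2, pseudocount 1), transcripts on the deposited scale and log2 ratios of a transcript to the gene's other transcripts (pseudocount 10) were fitted with limma 3.58.1 in R 4.3.3 over all 4 groups, with a trend in the variance prior and Benjamini-Hochberg adjustment over all features. A call is an unadjusted p-value under 0.05, and the adjusted threshold is 0.1. Permutation p-values are two-sided over 100000 resamples (Python 3.11.15, scipy 1.17.1, pandas 2.3.3, numpy 2.4.6). A count model was not the main test because the deposited unit is log2, and limma-voom on recovered reads was an alternative, as were other scalings, filters, covariates and left-out libraries. The code was tested on simulated data. Named genes were the 12 rises and 12 falls with the smallest p-values, the 5 largest called changes each way, up to 6 called members of each list with its defining members, transcripts past the adjusted threshold, and the 6 leading transcript rises, falls and shares. Genes shown outside that rule (Gad2, Arntl, Hspa4, Hsph1, Calr, Canx, Hsp90b1, Dnajc3, Col4a1, Acat2, C1qa) were named to complete a count or a motif. Members and lists were chosen with earlier results of these data known. Some members of the lists are not reported here by name.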

Additional observations from a re-analysis of the deposited data

Results flagged for a closer look

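In 42 of 312 groups of 10 libraries, 1 library lay far from the other 9 of its group for a named gene. Chance flags about 1 in 20 groups, and the groups share libraries, so these are not independent. Values are normalised counts, each with the nearest other library of the group.

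Saline HF-HI replicate 1 was far below the others for Arc (1704, nearest 4728), Bhlhe40 (1444, nearest 1919), Cry2 (2164, nearest 2542), Dusp6 (942, nearest 1325), Egr1 (1385, nearest 2456) and Hlf (3439, nearest 3937). It was likewise far below the others for Junb (345, nearest 692), Kcnip4 (455, nearest 698), Nr4a1 (370, nearest 1151), Per1 (765, nearest 1284), Per2 (862, nearest 1327) and Sgk1 (373, nearest 1823). The same library was far above the others for Ahi1 (7780, nearest 6368), Ankrd63 (694, nearest 558), Drd1 (1991, nearest 1510), Gria1 (9816, nearest 8578), Pdia6 (1814, nearest 1575) and Scn3a (2542, nearest 2214). It was likewise far above the others for Sesn3 (1842, nearest 1647) and Slc1a3 (9096, nearest 8603). What sets this library apart was not tested.

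Saline HF-HI replicate 10 was low for Pak3 (2875, nearest 3541). Saline HF-HI replicate 2 was low for Gria2 (15206, nearest 19812). Saline HF-HI replicate 5 was high for Ier5 (1531, nearest 1295) and Klf10 (884, nearest 673). Saline HF-HI replicate 7 was low for Src (710, nearest 1067) and Vgf (859, nearest 1120). Saline HF-HI replicate 8 was low for Dbp (817, nearest 1057), Hmgcs1 (3710, nearest 4530), Msmo1 (847, nearest 1045) and Ptprz1 (4309, nearest 4620). Saline HF-HI replicate 9 was low for Nol4l (131, nearest 460). Saline sham replicate 10 was low for Kcns2 (402, nearest 759) and Lingo1 (1648, nearest 2166). Saline sham replicate 2 was low for Aqp4 (1310, nearest 1882). Saline sham replicate 5 was low for Dnajc6 (7643, nearest 8307) and high for Col4a2 (1471, nearest 1304). Saline sham replicate 6 was low for Abi1 (1033, nearest 1383). Saline sham replicate 7 was low for Cep250 (79.3, nearest 293) and Kif3b (1769, nearest 1854) and high for C4b (692, nearest 567). Saline sham replicate 8 was low for Actn2 (388, nearest 512) and Pde10a (7919, nearest 10496).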

How the results depend on the processing

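The count of called genes (627) stayed within 1.5 times under every alternative but 1, the striatal marker level as a covariate, which gave 369. Genes past the adjusted threshold (21) numbered 9 with the 20 saline libraries alone, 90 with library weights, 1 with the striatal covariate and 186 with the library numbered 1 left out of all 4 groups, an alternative chosen after seeing the data. Leaving out 1 saline library at a time gave 3 to 82, the extremes being saline HF-HI replicates 5 and 1. Transcripts past it (14) numbered 3 with the saline libraries alone, 117 without the libraries numbered 1 and 2 to 38 with 1 library left out, the extremes being saline HF-HI replicates 9 and 1. Centring each library on its median made 54.4% of called genes higher, against 48%.

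Over all genes, same-numbered saline libraries had residual correlations of -0.151 to 0.17, and 2 of 10 were over 0.1. A correlation over all genes cannot show whether same-numbered libraries share something that acts on few genes, such as Arc. With the replicate block, 627 genes were called and 25 passed the adjusted threshold, with 656 and 17 transcripts, and 0 transcript shares passed the adjusted threshold (79 unadjusted calls without the block).

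With the most abundant transcript in place of the sum, the log2 change turned to -0.30 for Cdc27, 0.24 for Prdx2, 0.06 for Ptpn5, 0.02 for Reln and 1.08 for Rps6ka3, and with the striatal covariate to 0.16 for Drd1. The cause was not tested. Of 125 called named genes, 84 were called without any 1 saline library.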
